A study of Mus musculus with 3 samples.

Results

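Oxidative phosphorylation subunit genes were taken here as the nuclear genes that encode parts of the mitochondrial respiratory chain and of ATP synthase. They were chosen by symbol from the platform's probe-to-gene table, as every single-symbol gene whose name begins with Nduf followed by a, b, c, s or v and a digit, with Uqcr, with Cox followed by a digit between 4 and 8, or with Atp5, together with Sdha, Sdhb, Sdhc and Sdhd. The rule found 81 genes of 19937 on the array, with 35 in complex I, 4 in complex II, 8 in complex III, 17 in complex IV and 17 in complex V. The rule reads symbols and no measured value, although the group was picked with earlier results of these data known. A gene with more than 1 probe set was read from its brightest, by mean over the libraries.

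The levels came from 3 libraries of mature medullary epithelium sorted from mouse thymus. These cells show antigens of other tissues to developing T cells. AireKO came from Aire–/– mice, which lack the transcription regulator Aire in every cell. Sirt1cKO came from Sirt1fl/fl Foxn1-Cre mice, in which Cre under Foxn1 control removes the floxed deacetylase gene Sirt1 in thymic epithelium. WT came from Sirt1fl/fl mice without Cre, so Sirt1cKO and WT share the floxed alleles, while the AireKO labels name none. The strain label was C57b/6 throughout, the mice were 6 weeks old, and typically 3 mice were pooled per library. The sort gate was EpCAM+, CD45-, Ly51low and MHC-II high. Total RNA was labelled and hybridised to Affymetrix Mouse Gene 1-ST arrays, and levels are given as log2 of the deposited intensity. Each genotype had 1 library, so no test was possible and every difference describes a pair of libraries and not the genotypes.

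Complexes I and II feed electrons from NADH and succinate into ubiquinone, complex III passes them to cytochrome c, and complex IV hands them to oxygen. Complexes I, III and IV pump protons across the inner mitochondrial membrane, and complex V, the ATP synthase, makes ATP as the protons flow back through its membrane part and turn its catalytic head. Most subunits are encoded in the nucleus, where the transcription factors NRF1, GABP, YY1 and the oestrogen-related receptors are known to bind near many of their start sites.

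Some facts about the libraries bear on all results. The free-text descriptions of AireKO and Sirt1cKO name each other's genotype, so both names stand here for the libraries labelled so by title. Aire stood at log2 11.55 in AireKO, 11.24 in Sirt1cKO and 11.97 in WT, and Sirt1 at 11.42, 11.27 and 11.40 in the same order, on probe sets that need not lie in the deleted parts. Xist stood at 6.75 in AireKO, 11.46 in Sirt1cKO and 12.17 in WT and the Y-linked gene Eif2s3y at 9.75, 8.92 and 4.23, so the libraries differ in sex-linked genes, which cannot be told apart from genotype. H2-Ea, an MHC class II gene that C57BL/6 mice are known not to express, stood at 13.23 in AireKO, 5.90 in Sirt1cKO and 5.60 in WT. AireKO thus goes against its strain label, and strain and genotype cannot be told apart in any comparison with AireKO. The 95th percentile of 1027 olfactory receptor genes, used as background, lay at 6.89 in AireKO, 6.34 in Sirt1cKO and 6.02 in WT. All 15 listed markers of mature medullary epithelium were above background in every library. Their summed intensity was 43630 in AireKO, 49710 in Sirt1cKO and 65550 in WT, and its part in the results below was not tested.

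RefSeq promoter windows, 250 bases before to 50 after a start site on GRCm38.p6, were at hand for 66 of the 81 genes, in 71 windows. Windows of other genes described below, such as Atp5b, are not shown. The 4 windows shown are examples, with Atp5d, Ndufv1 and Uqcrc1 lower in AireKO than in WT and Ndufa7 higher. They are written 5′ to 3′ in the direction of transcription, and capitals mark any match to the NRF1 core (GCGCA, any base, then GCGC), the GABP core CCGGAAG, the YY1 core AAGATGGC, the oestrogen-related receptor core AAGGTCA or the SP1 core GGGCGG, on either strand.
Atp5d, chr10:80142025-80142324, plus strand: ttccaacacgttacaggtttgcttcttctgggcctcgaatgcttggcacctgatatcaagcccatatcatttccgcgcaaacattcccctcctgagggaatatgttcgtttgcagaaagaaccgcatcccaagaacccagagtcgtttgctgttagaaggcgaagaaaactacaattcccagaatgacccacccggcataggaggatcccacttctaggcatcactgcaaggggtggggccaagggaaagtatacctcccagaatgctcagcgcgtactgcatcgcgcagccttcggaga
Ndufv1, chr19:4012706-4013005, minus strand: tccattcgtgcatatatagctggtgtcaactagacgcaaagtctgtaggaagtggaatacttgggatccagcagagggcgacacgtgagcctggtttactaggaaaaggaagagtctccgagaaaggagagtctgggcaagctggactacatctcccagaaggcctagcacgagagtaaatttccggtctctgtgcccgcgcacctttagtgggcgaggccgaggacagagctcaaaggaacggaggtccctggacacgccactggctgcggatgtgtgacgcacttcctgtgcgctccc
Uqcrc1, chr9:108936398-108936697, plus strand: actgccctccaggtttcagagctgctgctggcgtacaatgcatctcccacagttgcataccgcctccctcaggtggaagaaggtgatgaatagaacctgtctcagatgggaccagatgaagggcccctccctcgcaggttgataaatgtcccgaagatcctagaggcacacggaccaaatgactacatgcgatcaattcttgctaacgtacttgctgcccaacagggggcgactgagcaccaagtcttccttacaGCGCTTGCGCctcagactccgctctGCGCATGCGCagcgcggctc
Ndufa7, chr17:33824322-33824621, plus strand: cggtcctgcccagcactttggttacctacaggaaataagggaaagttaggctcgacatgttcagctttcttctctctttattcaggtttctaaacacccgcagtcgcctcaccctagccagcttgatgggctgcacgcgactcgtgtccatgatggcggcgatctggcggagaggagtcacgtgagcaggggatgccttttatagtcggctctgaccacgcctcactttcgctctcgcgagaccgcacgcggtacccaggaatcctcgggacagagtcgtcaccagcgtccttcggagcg

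The windows of Atp5d, Ndufv1 and Ndufa7 held none of these letters, and the Uqcrc1 window held 2 matches to the NRF1 core. The window of Atp5b, not shown, held the SP1 core. Over all windows of the group, the NRF1 core was found in 23.9% of 71 windows, against 4.6% of all 32851 RefSeq windows and 8.64% of the windows of measured genes. The GABP core was found in 23.9%, against 8.86% of all windows and 15.5% of those of measured genes. The YY1 core was found in 14.1%, against 2.75% and 3.95%, and the receptor core in 9.86%, against 4.72% and 3.27%. The SP1 core was found in 39.4%, against 35.7% of all windows and 59.3% of those of measured genes. The 16 measured genes with the NRF1 core had a median difference of -0.54 between AireKO and WT, and the 49 without it -0.15. Between Sirt1cKO and WT these medians were -0.30 and -0.12. The windows lie at the genes' own loci, but some of these genes were read from probe sets numbered among genes of another chromosome, as set out below. Among the 16, Atp5g2 was read so, at -0.91 in AireKO minus WT, while its own-chromosome set gave -0.10. With the latter set the AireKO minus WT median of the 16 would lie between Atp5o, at -0.51, and Sdhd, at -0.15. For the GABP core the medians were -0.05 with it and -0.21 without it in AireKO minus WT, and -0.16 and -0.27 in Sirt1cKO minus WT. The other cores differed less in AireKO minus WT, with medians of -0.10 with and -0.16 without the YY1 core, -0.15 and -0.16 for the receptor core, and -0.13 and -0.17 for the SP1 core. In Sirt1cKO minus WT these were -0.17 and -0.17, 0.00 and -0.19, and -0.12 and -0.23. A match is a run of letters and not a bound site, and no test was made of these differences.

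**Figure D1:**
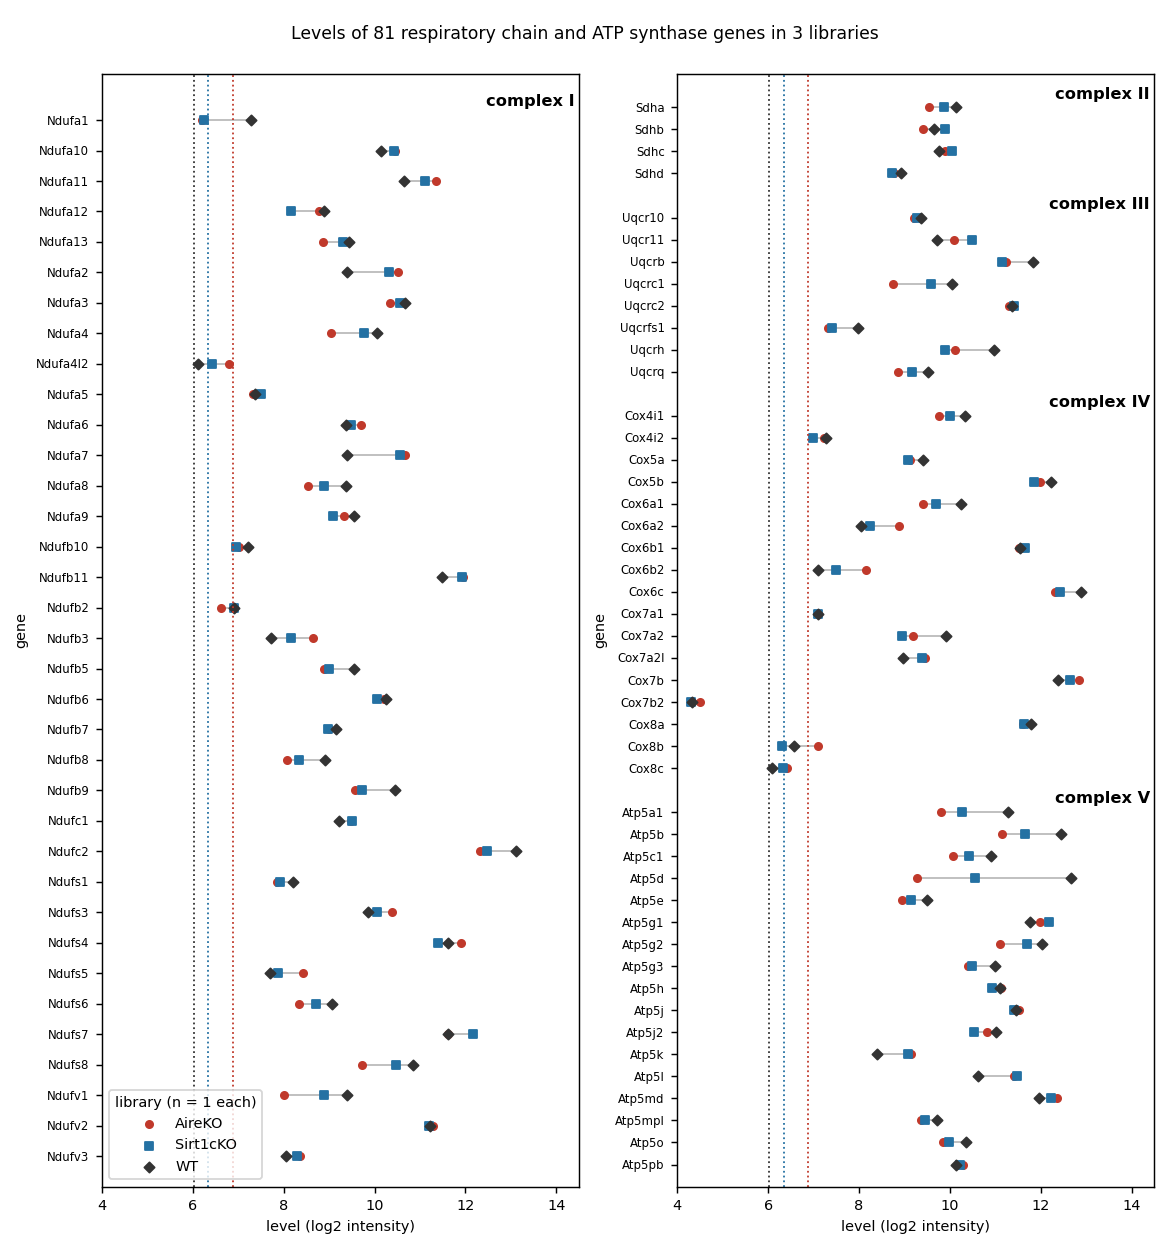
Level of each of the 81 genes as log2 intensity (horizontal axis) in AireKO (circles), Sirt1cKO (squares) and WT (diamonds), 1 library each, with genes by complex down the page. Dotted lines mark the background of each library at 6.89, 6.34 and 6.02 in that order. Atp5d shows the widest spread, from 9.28 in AireKO to 12.67 in WT, and levels of different genes are not comparable because each has its own probes.

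Of the 81 genes, 78 were measured, meaning that their highest library reached 6.81, the median of all array values, and 75 reached it in every library. The remaining genes were Ndufa4l2, Cox7b2 and Cox8c. The median level of the 81 genes was 9.48 in AireKO, 9.77 in Sirt1cKO and 9.77 in WT.

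Among measured genes, the group as a whole stood where the array stood in AireKO. The median difference of the 78 measured genes from WT was -0.18 on the log2 scale, that of all 12556 measured genes was -0.19, and that of the 3403 genes at least as bright as the lower quartile of the group was -0.25. Without the filter, the 81 genes had -0.16 and all 19937 genes 0.02. In AireKO, 8 of the 78, or 10.3%, were at least 2-fold lower than in WT, against a background of 8.46% of all measured genes and 11.5% of the bright ones. Ndufa1, among the 8, was within background in AireKO. When such values are taken as bounds, 7 of 78 remain, against 7.34% of all measured genes. On the other side, 3 of 78, or 3.85%, were at least 2-fold higher, against a background of 2.68% and, among the bright genes, 2.94%. Both shares lie near their backgrounds. Other scalings changed this split. Quantile normalization and loess each gave 6 of 78 genes lower and 5 of 78 higher. The shares of all measured genes were 6.74% and 3.29% with quantile normalization and 6.19% and 3.43% with loess. Moving all differences so that their median was 0 gave 5 of 78 lower and 5 of 78 higher, against 5.3% and 4.49%. Centring each library on its median gave 5 of 78 lower and 8 of 78, or 10.3%, higher, against 4.36% and 5.62%. Under each of these scalings both shares of the group lay above those of all measured genes, more so for the higher genes. No test of this was possible. The split of the whole array also moved toward fewer lower and more higher genes. Centring moved the median difference of all measured genes to 0.08, and quantile normalization and loess moved it to -0.10 and -0.08. Lower amounts of these RNAs can reflect fewer cells of a type or less RNA per cell, which cannot be told apart in sorted pools.

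In Sirt1cKO the group lay somewhat below the array. The median difference from WT was -0.21 over the 78 genes and -0.07 over all measured genes. At least 2-fold lower than in WT were 4 of 78 genes, or 5.13%, against a background of 1.68% of all measured genes and 1.7% of the bright ones. The share at least 2-fold higher was 1 of 78, or 1.28%, against 0.804% and 1.35%. Of the 4 lower genes, Ndufa1 was within background in Sirt1cKO, and 3 of 78 remain on bounds, against 1.51%. Quantile normalization gave 3 of 78 lower and 2 of 78 higher, against 1.38% and 0.821% of all measured genes. Loess gave 3 of 78 and 1 of 78, against 1.53% and 0.91%. The shift of the median gave 2 of 78 and 1 of 78, against 1.31% and 0.964%. Median centring gave 1 of 78 and 2 of 78, against 1.18% and 1.11%, so the share lower then lay at its background. Without the filter the 81 genes had a median of -0.20 in Sirt1cKO minus WT, and all 19937 genes 0.003.

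**Figure D2:**
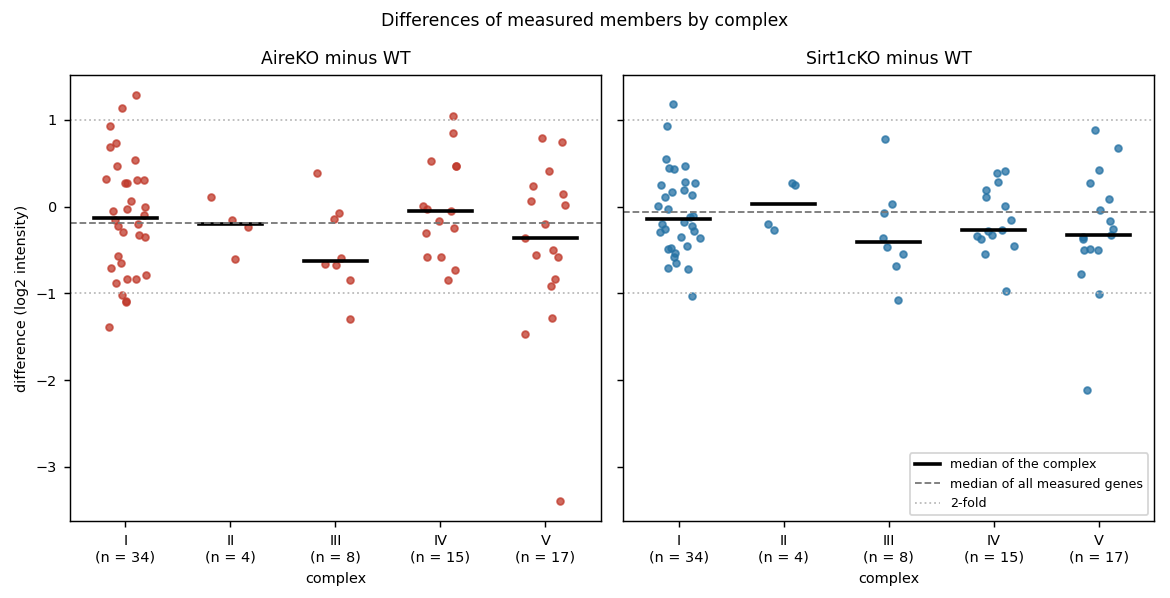
Log2 difference from WT of each measured gene (points) by complex, for AireKO (left) and Sirt1cKO (right), with the median of each complex (bar), the median of all measured genes (dashed) and 2-fold limits (dotted). Complex III medians lie at -0.63 in AireKO and -0.41 in Sirt1cKO, and complex V medians at -0.36 and -0.33, while the points within complexes I, IV and V spread to both sides of 0.

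The complexes did not move as blocks. In AireKO minus WT the median was -0.13 over 34 measured genes of complex I, -0.20 over 4 of complex II, -0.63 over 8 of complex III, -0.05 over 15 of complex IV and -0.36 over 17 of complex V. In Sirt1cKO minus WT the medians were -0.15, 0.03, -0.41, -0.27 and -0.33 in the same order of complexes. Complex III kept a median between -0.47 and -0.36 in AireKO minus WT under the 4 other scalings, and complex V between -0.17 and -0.09. The complex I median turned positive under all 4 of these scalings, between 0.01 and 0.14. Those of complexes II and IV turned positive under 2 of the 4, at most 0.07 and 0.22.

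In ATP synthase the catalytic head had the lowest median of any part, although single genes of other parts overlapped with it. F1, the head that makes ATP and its central stalk, has 5 kinds of subunit, and all 5 genes were lower than in WT in both knockout libraries. Of all measured genes, 63.7% were below WT in AireKO and 58.4% in Sirt1cKO. The 5 F1 genes had a median difference of -1.29 in AireKO minus WT and -0.78 in Sirt1cKO minus WT. The 12 genes outside F1 had medians of 0.04 and -0.11. For 4 of these 12, and for no F1 gene, the probe set in use is numbered among genes of another chromosome. With own-chromosome sets the 12 had medians of -0.15 in AireKO minus WT and -0.17 in Sirt1cKO minus WT. The c ring genes among them had -0.58 and -0.33 with the sets in use, and -0.10 and -0.16 with own-chromosome sets. In AireKO minus WT Atp5g2 and Atp5g3, at -0.91 and -0.58, lay below the F1 gene Atp5e, at -0.56. In Sirt1cKO minus WT Atp5j2, Atp5g3 and Atp5o, at -0.50, -0.49 and -0.38, lay below Atp5e, at -0.36. This division of the enzyme is textbook knowledge, but it was applied after the values had been seen, so it is a description with no test.

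Atp5d encodes the delta subunit at the foot of the central stalk. Its level was 9.28 in AireKO, 10.56 in Sirt1cKO and 12.67 in WT. AireKO was lowest, Sirt1cKO between, and WT highest, with AireKO 10.5-fold and Sirt1cKO 4.33-fold below WT. Among all 12556 measured genes Atp5d ranked 15 from the lowest in AireKO minus WT and 4 from the lowest in Sirt1cKO minus WT.

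Atp5a1, the alpha subunit of the head, had levels of 9.81 in AireKO, 10.27 in Sirt1cKO and 11.28 in WT. Atp5b, the beta subunit that carries the catalytic sites, had 11.15, 11.65 and 12.44. Atp5c1, the gamma subunit that turns inside the head, had 10.07, 10.41 and 10.91. The same order, AireKO lowest and WT highest, which 38.3% of all measured genes showed, also held for Atp5e, the epsilon subunit, at 8.94, 9.14 and 9.50. The differences from WT were -1.47 and -1.01 for Atp5a1, -1.29 and -0.78 for Atp5b, -0.84 and -0.50 for Atp5c1, and -0.56 and -0.36 for Atp5e, with AireKO first in each pair. Without Atp5d the median of the other 4 was -1.06 in AireKO minus WT and -0.64 in Sirt1cKO minus WT. All 5 genes stayed below 0 in both comparisons under quantile normalization, loess, median centring and the shift of the median to 0, with medians of -1.02 or lower in AireKO and -0.69 or lower in Sirt1cKO.

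**Figure D3:**
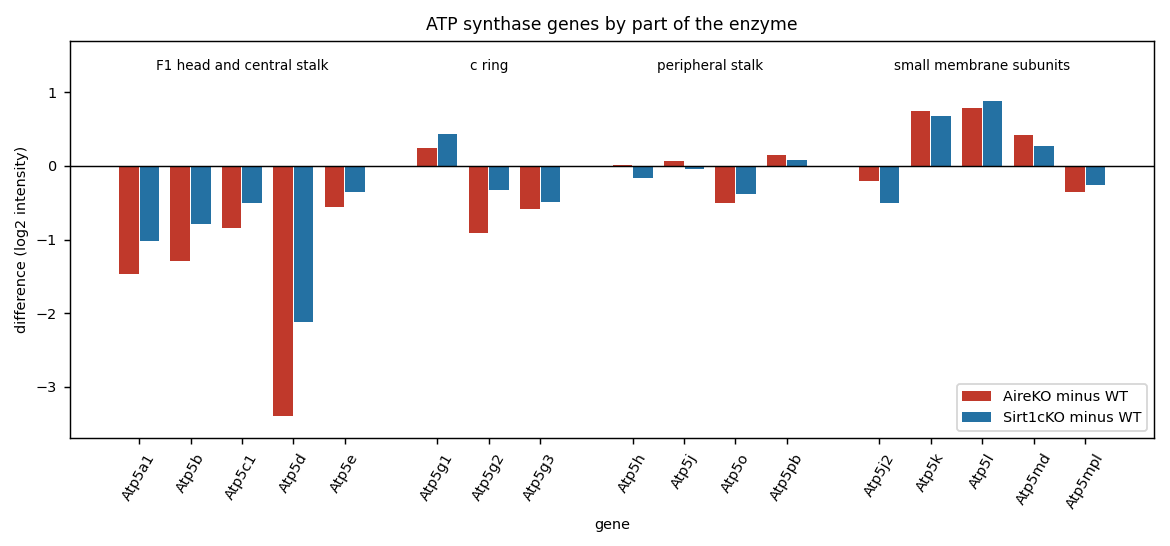
Log2 difference from WT (vertical axis) of the 17 complex V genes in AireKO (red) and Sirt1cKO (blue), 1 library each, arranged by part of the enzyme. The 5 F1 genes all lie below 0, with Atp5d at -3.40 and -2.11, and genes of the other parts lie on both sides of 0.

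The c ring, the rotor in the membrane, is encoded by 3 genes whose mature protein is the same. Atp5g1 had levels of 11.99 in AireKO, 12.18 in Sirt1cKO and 11.75 in WT, above WT in both, while its other probe set gave -0.35 and 0.04. That other set stood at 5.44, 5.83 and 5.80, within background in each library. Atp5g2 had 11.11, 11.70 and 12.03, and Atp5g3 had 10.40, 10.50 and 10.98, below WT in both. The peripheral stalk holds the head still. Its genes Atp5pb, Atp5h and Atp5j differed from WT by 0.14, 0.01 and 0.07 in AireKO and by 0.08, -0.17 and -0.04 in Sirt1cKO. Atp5o, the subunit that joins this stalk to F1, differed by -0.51 and -0.38. The median of these 4 was 0.04 in AireKO minus WT, and -0.25 with own-chromosome sets.

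Small membrane subunits, which support dimers of the enzyme, went both ways. Atp5l, subunit g, had levels of 11.40 in AireKO, 11.49 in Sirt1cKO and 10.61 in WT. Atp5k, subunit e, had 9.15, 9.08 and 8.40. Both stood above WT in each knockout library, by 0.79 and 0.88 for Atp5l and by 0.75 and 0.68 for Atp5k. Atp5md differed by 0.41 and 0.27, while Atp5mpl differed by -0.36 and -0.26 and Atp5j2 by -0.20 and -0.50. The median of these 5 in AireKO minus WT was 0.41, and -0.20 with own-chromosome sets.

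Of the 34 measured genes of complex I, 4 were lower than in WT by 2-fold or more in AireKO, or 11.8%, and 2 were higher, or 5.88%. Complex I was taken by symbol, so the 4 include Ndufa4, known to sit in complex IV. All measured genes gave 8.46% and 2.68%, and the bright ones 11.5% and 2.94%. In Sirt1cKO 1 was lower and 1 higher, or 2.94% each. There all measured genes gave 1.68% and 0.804%, and the bright ones 1.7% and 1.35%. Ndufa1 is among the lower genes in both knockout libraries and was within background there. On bounds 3 of 34 were lower in AireKO, Ndufa4 again among them, and 0 of 34 in Sirt1cKO, against 7.34% and 1.51% of all measured genes.

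Among the core subunits, which carry the electrons, Ndufv1, the NADH-binding flavoprotein, had levels of 8.0 in AireKO, 8.89 in Sirt1cKO and 9.38 in WT. AireKO was 2.61-fold below WT and Sirt1cKO 1.41-fold below WT. Ndufs8, an iron-sulphur subunit near the quinone site, had 9.73, 10.47 and 10.83, with differences from WT of -1.10 and -0.37. The other core subunits did not differ from WT by as much in AireKO. Ndufv2, the second flavoprotein, stood at 11.28, 11.19 and 11.22, and Ndufs7, an iron-sulphur subunit, at 11.62, 12.17 and 11.63. Ndufs3 was above WT, by 0.53 in AireKO and 0.20 in Sirt1cKO. Ndufs1 was below, by -0.35 and -0.28, in the same order of libraries as Ndufs8. The 6 core genes had a median difference of -0.18 in AireKO minus WT and -0.15 in Sirt1cKO minus WT.

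Accessory subunits surround the core and are needed to assemble and stabilise it. Ndufa7 had levels of 10.67 in AireKO, 10.57 in Sirt1cKO and 9.39 in WT. Ndufa2, another accessory subunit of the matrix arm, had 10.52, 10.32 and 9.39. Both stood above WT in each knockout library, with Ndufa7 2.44-fold and 2.27-fold higher and Ndufa2 2.19-fold and 1.90-fold higher. Ndufb3 had 8.64, 8.17 and 7.72, also in the order AireKO, Sirt1cKO, WT from high to low. On the lower side, Ndufb9 differed from WT by -0.88 in AireKO and -0.72 in Sirt1cKO, Ndufb8 by -0.84 and -0.58, and Ndufc2 by -0.79 and -0.65. The 11 genes of the B and C series had a median of -0.20 in both comparisons, and the 12 of the A series had medians of -0.06 and -0.00. Ndufb2 stood at 6.62 in AireKO, 6.92 in Sirt1cKO and 6.91 in WT, and its AireKO value was within background. Ndufs5 had 8.43 in AireKO, 7.87 in Sirt1cKO and 7.70 in WT, above WT by 0.73 and 0.17. Genes of complex I not named with values lay between -0.83 and 0.69 in AireKO minus WT, from Ndufa8 to Ndufa11.

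Ndufa4, named as a complex I subunit but known to sit in complex IV, had levels of 9.05 in AireKO, 9.77 in Sirt1cKO and 10.06 in WT. It lay just past 2-fold in AireKO, at -1.01, and at -0.29 in Sirt1cKO. Its paralogue Ndufa4l2, known as a hypoxia-induced gene, stood at 6.80, 6.41 and 6.11, within background in AireKO, so no fold is given.

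Complex II, succinate dehydrogenase, also works in the citric acid cycle. It showed the smallest range of the 5 complexes in AireKO minus WT, from -0.60 to 0.12, but also has the fewest genes. Sdha, the flavoprotein, had levels of 9.53 in AireKO, 9.87 in Sirt1cKO and 10.14 in WT. Sdhb, the iron-sulphur subunit, had 9.40, 9.89 and 9.64. Of the membrane anchors, Sdhc stood at 9.88, 10.04 and 9.77 and Sdhd at 8.77, 8.73 and 8.93. None of the 4 reached 2-fold in any comparison.

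In complex III, 7 of 8 genes were lower in AireKO than in WT and 6 of 8 lower in Sirt1cKO, where 63.7% and 58.4% of all measured genes were below WT. Fewer were below WT in AireKO under quantile normalization, loess, median centring and the shift of the median. Each left 2 of 3 genes of the core and iron-sulphur proteins and 3 of 5 genes of the small subunits below WT there. Uqcrc1, a core protein, had levels of 8.76 in AireKO, 9.58 in Sirt1cKO and 10.05 in WT, and was 2.45-fold lower in AireKO and 1.38-fold lower in Sirt1cKO. The companion core protein Uqcrc2 stood level, at 11.29, 11.40 and 11.37. Uqcrfs1, the Rieske iron-sulphur protein that passes electrons to cytochrome c1, had 7.31, 7.42 and 7.97. Among small subunits Uqcrh, the hinge protein, had 10.12 in AireKO, 9.90 in Sirt1cKO and 10.97 in WT, with Sirt1cKO lowest at -1.07 from WT. Uqcr11 was the gene above WT in both, with 10.10, 10.48 and 9.71. Cyc1, which encodes cytochrome c1 of this complex and lies outside the naming rule, had 9.02, 9.37 and 10.03.

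Complex IV has subunits that most tissues use and isoforms known from heart, muscle, lung or testis. Of the 9 broadly expressed genes, 8 were lower in AireKO and 7 lower in Sirt1cKO than in WT, with medians of -0.30 and -0.33, and none reached 2-fold. Ndufa4, counted in complex I by symbol, is not among them. The shares of all measured genes below WT were 63.7% and 58.4%. Under median centring 5 of 9 were below WT in AireKO. Cox6a1 had levels of 9.41 in AireKO, 9.70 in Sirt1cKO and 10.25 in WT. Cox7a2 had 9.19, 8.95 and 9.92, with both knockout libraries below WT by -0.73 and -0.97. Cox4i1, the regulatory subunit, had 9.76, 10.01 and 10.34, while Cox6b1, which joins the monomers, stood at 11.52, 11.65 and 11.55.

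Of the 7 tissue-restricted isoforms, 6 had positive differences in AireKO minus WT, with a median of 0.34, where 63.7% of all measured genes were below WT. Among these 6, Cox7b2 and Cox8c were not measured and Cox7a1 differed by 0.01, which leaves Cox6a2, Cox6b2 and Cox8b. The number above WT was 4 of 7 after quantile normalization or loess and 7 of 7 after median centring or the shift of the median. Cox6b2, known from testis, had levels of 8.14 in AireKO, 7.49 in Sirt1cKO and 7.11 in WT, at 1.04 and 0.38 from WT. Cox6a2, the heart and muscle form, had 8.89, 8.24 and 8.05, at 0.84 and 0.19. Cox7a1, also a heart and muscle form, stood at 7.09 in all 3 libraries. Cox4i2, known from lung, stood at 7.22, 6.99 and 7.27. Cox8b had 7.09, 6.30 and 6.57 and was within background in Sirt1cKO, Cox8c, known from testis, was within background in AireKO and Sirt1cKO, and Cox7b2 was within background in all 3.

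With all genes in 10 bins by brightness, the median difference in AireKO minus WT was -0.26 in the bin of Cox6a2, -0.16 in that of Cox6b2 and 0.10 in that of Cox8b. Striated muscle markers were above background in 7 of 10 genes in AireKO, 8 of 10 in Sirt1cKO and 10 of 10 in WT, with summed intensities of 2049, 2255 and 2457. Germ cell markers were above background in 2 of 7 genes in each library, with sums of 552.2, 472.8 and 444.2, and Ddx4, Dazl, Tnp1, Ldhc and Pgk2 were within background throughout. Brown adipocyte markers were above background in 1 of 4 genes in each library, with Ucp1, Cidea and Dio2 within background, and sums of 325.1, 332.8 and 342.0. The part of these cells in the isoform values was not tested.

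On the X chromosome lie 3 of the genes, which matters because the libraries differ in sex-linked genes. Ndufa1 had levels of 6.19 in AireKO, 6.25 in Sirt1cKO and 7.28 in WT. It was within background in both knockout libraries, so it was at least 1.31-fold lower in AireKO and at least 1.92-fold lower in Sirt1cKO than in WT. Ndufb11 had 11.95, 11.91 and 11.49, and Cox7b had 12.83, 12.65 and 12.37, both above WT. For both genes the set in use is numbered among genes of another chromosome. The Ndufb11 set numbered on the X differed from WT by -0.56 in AireKO and 0.28 in Sirt1cKO. The Cox7b set numbered there differed by 0.91 and 0.60. Without these 3 genes the group medians over 75 measured genes were -0.20 in AireKO minus WT and -0.23 in Sirt1cKO minus WT. At least 2-fold lower were 7 genes, or 9.33%, and 3, or 4.0%, against 8.46% and 1.68% of all measured genes. The 341 measured X-linked genes had medians of -0.05 and 0.01.

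Several of these genes have processed pseudogenes elsewhere in the genome, and 16 of the 81 had more than 1 probe set. Probe-set numbers on this array follow the genome, since 99.82% of the genes with 1 probe set lay on the chromosome of the 20 numbers on either side. By this measure the probe set in use fell among genes of another chromosome for 9 of the 81, all with several sets. For comparison, this held for 2.22% of all measured genes. The 9 genes were Atp5g2, Atp5l, Atp5md, Atp5pb, Cox6c, Cox7a2l, Cox7b, Ndufa11 and Ndufb11. Which locus the RNA came from was not tested.

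These 9 had a median difference from WT of 0.46 in AireKO and 0.28 in Sirt1cKO, against -0.21 and -0.27 for the 68 measured genes with a set on their own chromosome. Among all measured genes the corresponding medians were -0.07 over 279 genes and -0.19 over 11955 in AireKO minus WT. Sets of the same gene disagreed in sign for 7 of 16 genes in AireKO minus WT and 4 of 16 in Sirt1cKO minus WT. For Atp5g2 they ran from -0.91 to 0.64 in AireKO minus WT. With Cox7a2l, a factor that joins complexes III and IV, the set in use gave 0.47 in AireKO minus WT and the set on its own chromosome -0.61. The latter set stood at 6.37 in AireKO, within background there, and at 6.98 in WT. The genes whose sets disagreed in sign in AireKO minus WT were Atp5g1, Atp5g2, Atp5md, Atp5pb, Cox7a2l, Ndufb11 and Ndufc1, and their direction is not settled there. In Sirt1cKO minus WT they were Atp5g2, Atp5h, Atp5pb and Ndufc1. For Atp5g1 and Cox7a2l the disagreement in AireKO minus WT rests on a set that was within background in AireKO. Atp5l stood above WT in all 5 of its sets, by 0.28 to 1.29 in AireKO and 0.38 to 1.40 in Sirt1cKO. All F1 genes had 1 set each, on their own chromosome. With the sets on another chromosome left out for these genes, the group median was -0.21 in both comparisons. Of the 78 measured genes, 8 were then lower and 4 higher in AireKO, and 4 lower and 2 higher in Sirt1cKO. The shares of all measured genes were then 8.46%, 2.68%, 1.68% and 0.812%.

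**Figure D4:**
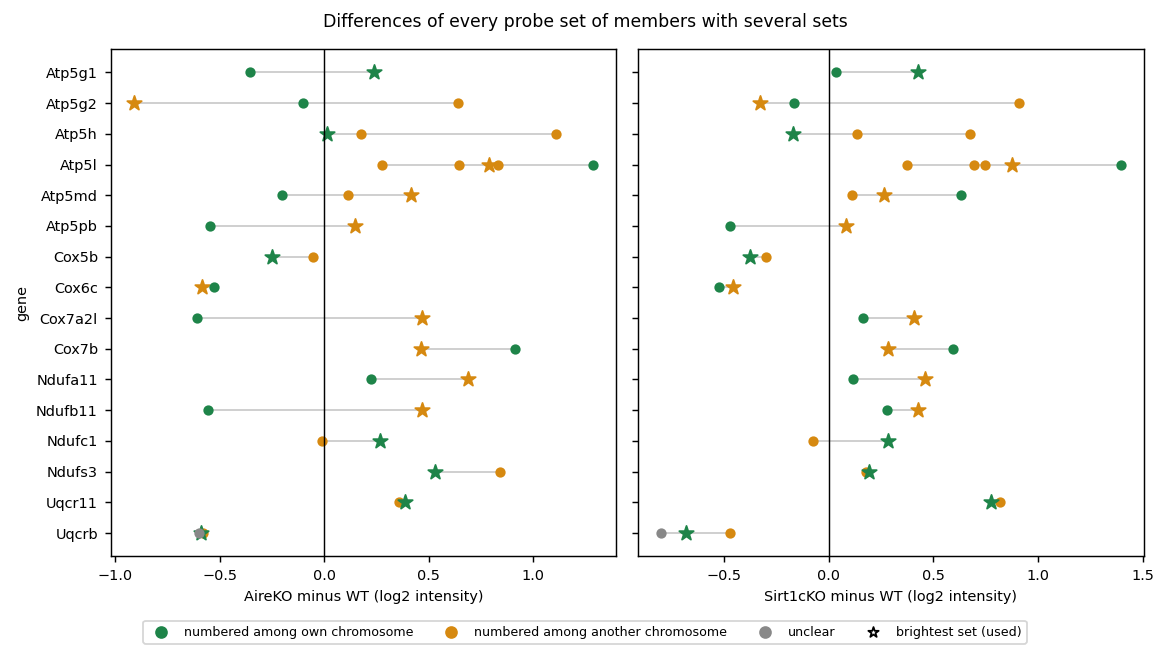
Log2 difference from WT of every probe set of the 16 genes with several sets, for AireKO (left) and Sirt1cKO (right). Stars mark the brightest set, which was used, and colours show whether the set's number falls among genes of its own (green) or another (orange) chromosome, or was unclear (grey). Sets of Atp5g2 lie on both sides of 0 in both panels and all 5 sets of Atp5l lie above 0.

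Sirt1cKO and AireKO were set against each other without WT. The median difference, Sirt1cKO minus AireKO, was 0.06 over the 78 genes and 0.11 over all measured genes. In this comparison 1 gene, or 1.28%, was at least 2-fold higher in Sirt1cKO, against a background of 2.72% of all measured genes and 3.88% of the bright ones. None was lower by that much, 0 of 78, against 1.04% and 0.999%. The gene was Atp5d, at 10.56 in Sirt1cKO and 9.28 in AireKO, or 2.43-fold higher. Next came Ndufv1, with 8.89 in Sirt1cKO and 8.0 in AireKO, Uqcrc1, with 9.58 and 8.76, Ndufs8, with 10.47 and 9.73, and Ndufa4, with 9.77 and 9.05. On the lower side, beside Cox8b, within background in Sirt1cKO, were Cox6a2, at 8.24 in Sirt1cKO and 8.89 in AireKO, Cox6b2, at 7.49 and 8.14, Ndufa12, at 8.17 and 8.78, and Ndufs5, at 7.87 and 8.43. All 5 F1 genes were higher in Sirt1cKO than in AireKO, with a median of 0.45. This comparison shares a library with each of the others, so it adds no separate evidence.

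Genes around the respiratory chain were described from lists of other mitochondrial and housekeeping genes. The citric acid cycle, which supplies the NADH and succinate, had 4 of 14 measured genes lower by 2-fold or more in AireKO, or 28.6%, and 0 higher, against 8.46% and 2.68% of all measured genes and 11.5% and 2.94% of the bright ones, with a median of -0.82 in AireKO minus WT and -0.46 in Sirt1cKO minus WT. Cs, citrate synthase, had levels of 9.46 in AireKO, 10.15 in Sirt1cKO and 11.10 in WT. Pdhb, a subunit of pyruvate dehydrogenase, stood at 6.52, 7.27 and 7.92 and was within background in AireKO. Idh3g and Sucla2 stood above WT in AireKO, by 0.40 and 0.47. Glycolysis genes had medians of -0.57 and -0.46 over 14 measured genes, with 2 of 14, or 14.3%, at least 2-fold lower in AireKO, Ldhb at -1.32 and Ldha at -1.09.

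Other mitochondrial lists lay nearer the array. Mitochondrial import genes had medians of -0.42 in AireKO minus WT and -0.23 in Sirt1cKO minus WT over 23 genes, with Tomm7, of the outer membrane channel, at -1.25 and -1.29. Assembly factors of the respiratory complexes had -0.16 and -0.18 over 25 genes, with Timmdc1, a complex I factor, at -1.33 and -1.10 and Cox20, a complex IV factor, at 1.16 and 0.71. Mitochondrial ribosomal proteins had -0.15 and -0.07 over 71 genes, with 2 at least 2-fold lower in AireKO, or 2.82% against 8.46% of all measured genes, and 1 in Sirt1cKO, or 1.41% against 1.68%. Cytosolic ribosomal proteins had -0.29 and -0.23 over 57 genes, and constitutive proteasome subunits -0.42 and -0.28 over 34. Subunits and partners outside the naming rule had -0.23 and -0.27 over 7 genes, with the electron carrier Cycs above WT by 0.86 and 0.69 and the electron transfer flavoprotein gene Etfb below it by -1.37 and -0.65. Of genes encoded in mitochondrial DNA the array table named COX2, at 13.49 in AireKO, 13.37 in Sirt1cKO and 13.29 in WT, and ND3, at 13.30, 13.09 and 13.23.

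**Figure D5:**
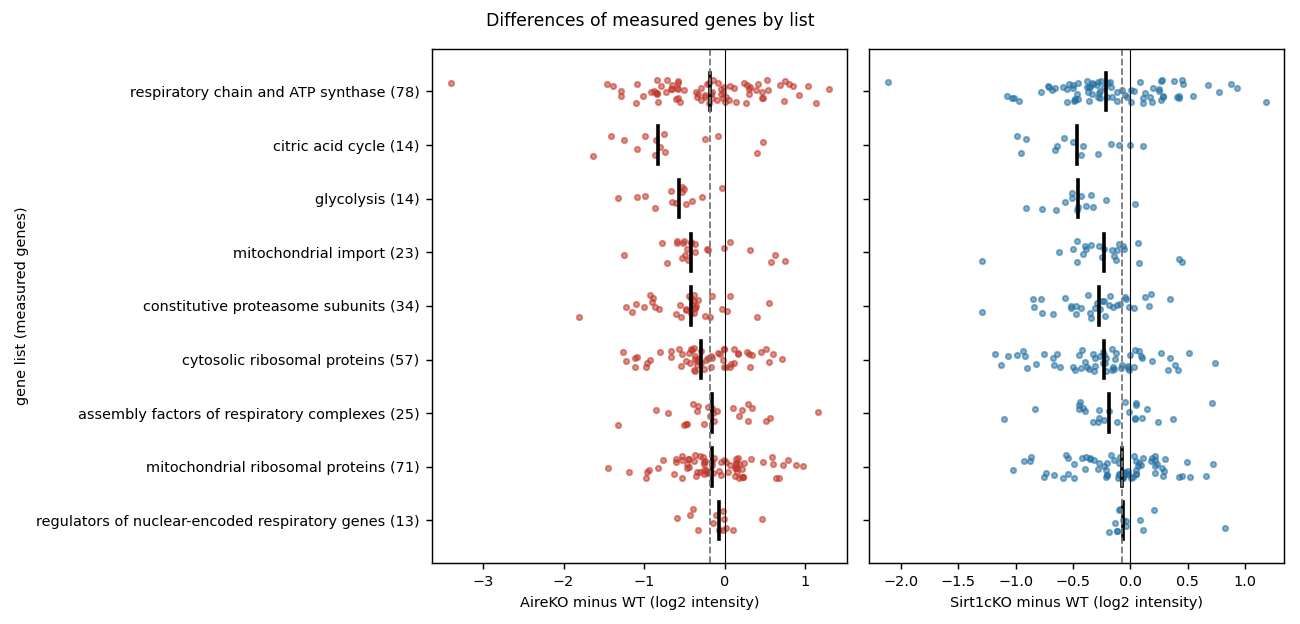
Log2 difference from WT of each measured gene (points) in 9 lists, for AireKO (left) and Sirt1cKO (right), with the list median (bar) and the median of all measured genes (dashed); numbers in brackets count genes. The citric acid cycle has the lowest medians, -0.82 and -0.46, and the respiratory chain and ATP synthase genes have -0.18 and -0.21.

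None of 13 measured regulators of these genes reached 2-fold in any comparison. Across all measured genes, 8.46% passed that limit downward and 2.68% upward in AireKO minus WT. The shares were 1.68% and 0.804% in Sirt1cKO minus WT, and 1.04% and 2.72% in Sirt1cKO minus AireKO. With so few regulators, a count of none does not set them apart from the array. The medians of the 13 were -0.08 in AireKO minus WT and -0.06 in Sirt1cKO minus WT. All measured genes had -0.19 and -0.07. Ppargc1a, the coactivator PGC-1 alpha, which Sirt1 is known to deacetylate, stood at 7.47 in AireKO, 7.69 in Sirt1cKO and 7.61 in WT. Nrf1 stood at 8.02, 8.06 and 8.09, Gabpa at 8.25, 8.36 and 8.15, and Yy1 at 9.92, 9.88 and 9.93. These levels differed by at most 0.22 between any pair of libraries. Esrra, an oestrogen-related receptor, had 7.23 in AireKO, 7.71 in Sirt1cKO and 7.83 in WT. Tfb2m, a factor of mitochondrial transcription, was above WT in both, at 8.48, 8.84 and 8.01, and Tfam, which packs mitochondrial DNA, was below the measured limit at 5.26, 5.58 and 6.20. The other 7 regulators, Ppargc1b, Pprc1, Gabpb1, Tfb1m, Polrmt, Polg and Myc, differed from WT by -0.43 to 0.01 in AireKO and by -0.18 to 0.11 in Sirt1cKO.

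Markers of other cells that a gate could let through were measured beside these results. Cortical epithelial markers had summed intensities of 6574 in AireKO, 6864 in Sirt1cKO and 7316 in WT, with Psmb11 and Cxcl12 within background in AireKO and Cxcl12 in Sirt1cKO. Thymocyte markers were above background in 5 of 10 genes in AireKO and 6 of 10 in Sirt1cKO and in WT, with sums of 1640, 1664 and 1307, and Cd3d, Rag2, Dntt and Ptcra within background in all 3. Dendritic cell, macrophage and B cell markers had sums of 2295, 2986 and 4866 over 6 genes, with Cd79a within background in all 3. Fibroblast and endothelial markers had 1111, 1043 and 1194 over 8 genes. Parathyroid markers, 2 of 3 on the array, had 461.2, 3694 and 621.2, led by Pth at 5.39, 11.70 and 7.72. The part of any of these cells in the levels of the respiratory genes was not tested.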

How the data were processed

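The authors deposited 1 intensity per probe set and library, on a scale that the values show to be linear. RMA is the tool named per the submitters' processing notes. The version, the annotation and the step back from log values: not given in the sources used here. Log2 was taken here, with no pseudocount and no further normalization. Of 34760 probe sets, 21640 had 1 gene symbol, 1321 several and 11799 none, and 19937 genes resulted. All 81 member symbols matched RefSeq on GRCm38.p6, which served for chromosomes and promoters. Members, lists and parts were chosen with earlier results of these data known, and libraries were grouped by title. Named genes followed a rule of extremes per comparison and complex, isoforms, X-linked genes and all regulators; Ndufb3, Ndufs3, Ndufs1, Cyc1, Cycs and Etfb and some others were named for their role. A gene counted as lower or higher at 2-fold. Folds against values within background are lower bounds. The number of arrays, 1 per genotype, limits the precision.

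The alternatives were quantile normalization, loess with a span of 0.3, median centring, a shift of the median difference to 0, other filters, the mean of probe sets, lower bounds, exchanged labels, other members, and 1.5-fold and 3-fold limits. Own-chromosome probe sets and a filter on the lowest library were added after the data were examined. Neighbouring probe-set numbers were read as 1 chromosome where 80% agreed. Computation was done with statsmodels 0.14.6, pandas 2.3.3, numpy 2.4.6 and Python 3.11.15. Counting was tested on simulated data, AireKO minus WT with 19937 genes, where 100 of 100 genes lowered 4-fold were found. The simulated noise was small against that shift, so this checks the counting and not the calls made on these arrays.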

Additional observations from a re-analysis of the deposited data

How the results depend on the processing

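No paired analysis was possible because each genotype has 1 library, and no library could be left out. For AireKO minus WT, the 8 lower and 3 higher genes became 5 and 8 after median centring and 5 and 5 with the median difference set to 0, with 5 higher after quantile normalization and after loess. The median of -0.18 became -0.048 after quantile normalization, -0.027 after loess, 0.087 after median centring and 0.004 with the shift. For Sirt1cKO minus WT, the 4 lower and 1 higher genes became 1 and 2 after median centring, with 2 lower after the shift, 2 higher after quantile normalization and 2 higher with own-chromosome probe sets. For Sirt1cKO minus AireKO, the median of 0.06 became -0.0435 after loess, -0.11 after median centring and -0.046 after the shift. The cause was not tested.

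With labels exchanged, the counts of 78 genes were 4 lower and 1 higher in AireKO minus WT, 8 and 3 in Sirt1cKO minus WT, and 1 and 0 in Sirt1cKO minus AireKO. In that last comparison the median was -0.064 and Atp5d stood at -1.28, by construction. The shares of all measured genes changed places too, at 1.68% and 0.804%, 8.46% and 2.68%, and 2.72% and 1.04% in the same order. At 1.5-fold, 23 of 78 genes were lower and 9 of 78 higher in AireKO minus WT, against 23.6% and 8.52% of all measured genes. For Sirt1cKO minus WT these were 10 of 78 and 5 of 78, against 8.27% and 4.01%. In both comparisons with WT the shares of the group lay above those of all measured genes. For Sirt1cKO minus AireKO they were 4 of 78 and 6 of 78, against 4.55% and 11.8%, with the share higher below that of all measured genes. At 3-fold, 1 of 78 genes was lower and 0 higher in each comparison with WT, against 1.86% and 0.741% for AireKO and 0.183% and 0.112% for Sirt1cKO. In Sirt1cKO minus AireKO 0 were higher, against 0.518%. Of 17 differences past 2-fold, 14 stayed past it after quantile normalization or loess, 11 after median centring, 12 after the shift, 15 as lower bounds, and 17 with the mean of probe sets or own-chromosome sets. Those lost after loess were Ndufa4 and Ndufs8 in AireKO minus WT, at -0.79 and -0.91, and Atp5a1 in Sirt1cKO minus WT, at -0.96. Dim genes are limited by the background, highest in AireKO at 6.89.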

Other observations

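Some probe sets listed a subunit gene together with another gene and were left out, as a set with several names cannot be assigned. There were 6 of them. The 3 brightest stood within 0.19 of WT in both comparisons, at 12.93, 11.55 and 11.48 in AireKO, 12.80, 11.67 and 11.40 in Sirt1cKO, and 12.84, 11.48 and 11.52 in WT. The largest difference was in a dimmer set, at 4.09 in AireKO, 5.10 in Sirt1cKO and 7.33 in WT, within background in both knockout libraries.

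The differences of members also varied with brightness. Among the 1994 brightest genes, 44 members had a median of -0.12 in AireKO minus WT, against -0.23 for all of them, and -0.16 in Sirt1cKO minus WT, against -0.05. Among the 1994 genes next in brightness, 18 members had -0.46 and -0.34, against -0.30 and -0.08 for all genes there.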
